A study of Mus musculus with 4 samples.

Results

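Among single cells sorted from the intestine of Bmi1-GFP mouse embryos at embryonic day 17.5 (E17.5), 130 cells devoted at least 2% of their transcripts to the insulin genes Ins1 and Ins2. They were chosen by that share, by at least 500 detected genes, by at most 20% mitochondrial UMIs and by less than 2% of UMIs from 5 acinar enzyme genes (Cpa1, Ctrb1, Cela1, Prss2 and Cel). A UMI (unique molecular identifier) stands for 1 captured RNA molecule. The 130 insulin-expressing cells were 2.82% of the 4602 E17.5 cells that passed the first 2 filters (95% Clopper-Pearson interval 2.37 to 3.35%, counting error only), and 15800 cells passed them in the whole series. They were described against 1512 other endocrine cells of the same library, defined by at least 0.1% of UMIs from the granule genes Chga and Chgb and less than 0.2% from Ins1 and Ins2.

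The series holds 4 libraries, 1 each from E12.5, E17.5, adult and irradiated adult mice, and every animal had the Bmi1-GFP genotype, a reporter strain in which Bmi1-expressing cells fluoresce. The labels describe all 4 as intestinal epithelial cells isolated by flow cytometry and give neither the number of animals nor the gates, and the irradiation dose and time are not stated there. Each group is 1 library, so no difference has a replicate check, and every interval covers counting error only.

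Insulin is made by beta cells of the pancreatic islets, which form from Neurog3-expressing progenitors of the embryonic pancreas. The pancreas buds from the foregut beside the duodenum, and the enteroendocrine cells of the gut arise from Neurog3-expressing progenitors of their own. Beta cells store insulin with the co-secreted peptide amylin (Iapp) in zinc-rich granules and release it when glucose enters through the transporter Slc2a2, is metabolised and closes a potassium channel.

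The deposited matrices held 5216, 5232, 6287 and 5996 barcodes for E12.5, E17.5, adult and irradiated adult, with medians of 15049, 9715.5, 2847 and 3783 UMIs. No cell met the insulin rule in 4226 E12.5, 3788 adult or 3184 irradiated adult cells, where a count of 0 allows shares of up to 0.0710%, 0.0792% and 0.0942%. The passing E12.5 cells held 259 insulin UMIs in 9 cells, 3 of them between 0.2% and 2% and the highest at 1.48%. No passing cell of either adult library held an insulin UMI, and barcodes that failed the filters were not counted. The libraries shared 6 to 12 barcodes pairwise, and the 130 insulin cells shared 0, 1 and 1 barcodes with E12.5, adult and irradiated adult.

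At E17.5, Ins1 and Ins2 together made up between 2.35% and 50.3% of a member's UMIs, with a median of 22.1%. These shares chose the members. The members nearest the threshold were at 2.35%, 2.77%, 2.94%, 3.40% and 3.98%, and the cells just outside were at 1.95%, 1.88%, 1.76%, 1.61% and 1.5%. In all, 28 cells lay between 0.2% and 2%, and 1 cell met the insulin threshold with 5.07% acinar enzyme UMIs and was left out. The third marker, Iapp, was not part of the rule and had UMIs in 130 of 130 members, at a median of 4.05% of UMIs (0.812 to 14.7%). Chga and Chgb reached 0.1% in 116 members and were lower in 14.

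Insulin UMIs were sparse outside the members. Ins1 and Ins2 were 239547 per 1000000 UMIs in the members (95% Poisson interval 238785 to 240310). They were 40.6 per 1000000 in the other endocrine cells (37.3 to 44.0), 24.8 in 170 cells with fibroblast collagen transcripts (16.6 to 35.6) and 19.7 in 2224 remaining non-endocrine cells (18.5 to 21). In 553 acinar cells they were 212 per 1000000, and 1320 of those 1573 UMIs came from 1 cell. A UMI of either gene was found in 24.7% of other endocrine cells at a median depth of 7713.5 UMIs. It was found in 15.3% of fibroblast-marker cells at 6054, so single insulin UMIs were read as background. The other endocrine cells held up to 18 in a cell, at a higher rate than the remaining cells, and the cause was not tested.

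Mice have 2 insulin genes. Ins1 lies on chromosome 19 (52264297 to 52265476, plus strand, GRCm38 with GENCODE M21) and Ins2 on chromosome 7 (annotated span 142678656 to 142743381, minus strand). Their coding sequences were identical at 302 of 333 aligned positions (90.7%). The last 200 bases of the transcripts, the part nearest to where a 3′ library reads, were identical at 45.8%. The transcripts used were 1062 (Ins1-201) and 478 (Ins2-201) bases long, with coding parts of 327 and 333 bases. The 2 ends thus need not be matching parts of the genes. The 45.8% does not measure how well reads tell the genes apart. The last 90 coding bases are printed to show how close the genes are, in the GENCODE M21 transcripts, with the 4 differing bases in capitals.
Ins1: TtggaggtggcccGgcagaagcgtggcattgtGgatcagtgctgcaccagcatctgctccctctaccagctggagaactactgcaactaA
Ins2: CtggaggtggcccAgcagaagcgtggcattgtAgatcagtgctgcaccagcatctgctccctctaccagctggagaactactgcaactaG

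Ins2 was the larger product. It supplied 66.3% of the members' insulin UMIs, with 251760 UMIs against 127737 for Ins1, and exceeded Ins1 in 109 of 130 cells. Ins1 ranged from 0 to 18.1% of a cell's UMIs (median 6.98%) and Ins2 from 0 to 36.6% (median 14.9%). Across the 130 cells the Spearman correlation of the 2 shares was 0.50. The 2 values share each cell's total and its depth, and the rule acts on their sum, so this is a description only.

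**Figure D1:**
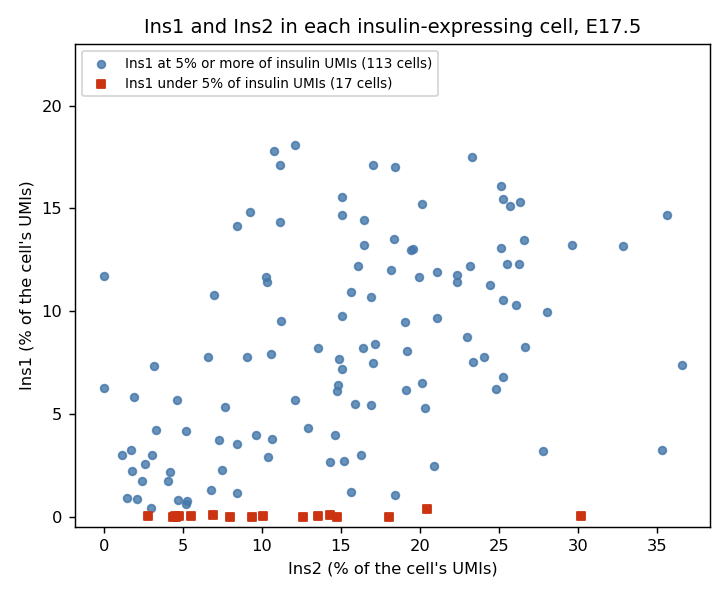
Each point is 1 of the 130 insulin-expressing cells, with Ins2 on the horizontal and Ins1 on the vertical axis, both as a percentage of the cell's UMIs. Red squares are the 17 cells with Ins1 under 5% of insulin UMIs, which lie along the horizontal axis up to high Ins2 shares, while the other 113 cells spread over both axes.

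A set of 17 members had almost no Ins1. The 5% split was chosen after the values were seen. In these cells Ins1 was at most 1.79% of the insulin UMIs, and the next cell stood at 5.33%. They held 16052 Ins2 UMIs against 57 of Ins1, 7 of them had no Ins1 UMI at all, and 1 cell had 3549 Ins2 and 2 Ins1 UMIs. Counts of Ins1 were thus few in cells with many Ins2 UMIs, although the coding sequences are close. The 17 cells had a median insulin share of 9.38% and 7630 UMIs, against 24.6% and 12399 in the other 113, and 1 of the 17 was among the likely doublets. In the opposite direction, 2 cells had over 95% of insulin UMIs from Ins1. One had 1002 Ins1 and 2 Ins2 UMIs, and the other had 69 and 0 in a cell of only 1104 UMIs.

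The cells with little Ins1 also expressed Iapp and the beta cell factors, at other levels. Levels are given from here on in counts per 1000000 UMIs outside the 9 genes of the selection rules (CPM), with 95% Poisson intervals. Iapp was at 39930 CPM (38840 to 41043) in the 17 cells and 62545 (62073 to 63020) in the 113. Slc2a2, the glucose transporter, was at 149 CPM (89.8 to 233) against 439 (400 to 480), and Npy, neuropeptide Y, at 267 (185 to 373) against 1264 (1197 to 1333). The factor Pdx1 was on the other side, at 463 CPM (353 to 597) against 307 (274 to 342). Mafa was at 298 CPM (211 to 409) against 453 (414 to 495), with UMIs in 58.8% against 85.0% of cells. The lower depth and insulin share of the 17 cells move with these levels, and their part was not tested.

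The promoters of Ins1 and Iapp are shown, as genes with large shares of the members' transcripts. Ins2, with a larger share than either, had no entry among the RefSeq promoters used. RefSeq starts on GRCm38.p6 were used, with 250 bases upstream on the plus strand, at chr19:52264047-52264296 for Ins1 and chr6:142298175-142298424 for Iapp. Capitals mark matches to 3 searched motifs on either strand: CATCTG (the E-box core bound by Neurod1 dimers), TAAT (a homeodomain core such as that of Pdx1) and TGCTGA (a Maf half-site core). The overlapping ATTA and TAAT in Iapp share bases.
Ins1: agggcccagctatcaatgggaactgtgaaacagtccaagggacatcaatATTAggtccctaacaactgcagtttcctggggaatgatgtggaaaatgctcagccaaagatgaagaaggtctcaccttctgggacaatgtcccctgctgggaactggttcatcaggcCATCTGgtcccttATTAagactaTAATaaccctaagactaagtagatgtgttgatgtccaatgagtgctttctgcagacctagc
Iapp: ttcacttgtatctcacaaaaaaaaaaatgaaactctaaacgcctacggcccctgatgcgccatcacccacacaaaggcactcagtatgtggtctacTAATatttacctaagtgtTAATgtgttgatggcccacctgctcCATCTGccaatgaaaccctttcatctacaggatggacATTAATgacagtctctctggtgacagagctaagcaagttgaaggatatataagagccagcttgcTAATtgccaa

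The Ins1 window held 1 CATCTG, starting at -84 from the start site, and 3 TAAT cores at -201, -71 and -61. The Iapp window held 1 CATCTG at -111 and 5 TAAT cores at -154, -136, -74, -72 and -10, and neither window held TGCTGA. Of 32851 RefSeq promoters of the same length, 14.4% held CATCTG, 54.9% TAAT and 16.1% TGCTGA. Among the 15 genes highest over the other endocrine cells, 8 had an entry, of which 1 held CATCTG (Iapp), 2 TAAT (Iapp and Slc2a2) and 1 TGCTGA (Nkx6-1). Among the 15 lowest, 13 had an entry, of which 2 held CATCTG, 10 TAAT and 0 TGCTGA. A match is a string of letters in this window and no measure of binding.

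Set against the other endocrine cells, the insulin-expressing cells were separated by amylin, beta cell factors and insulin secretion genes on one side and by gut hormones and intestinal structural genes on the other. Of 11240 genes with at least 50 UMIs over both sets, 912 were at least 2-fold higher in the insulin cells (8.11%) and 1884 at least 2-fold lower (16.8%), on a log2 ratio of CPM plus 1. The median over all these genes was 0.019. Scaling by all UMIs, insulin included, moved that median to -0.34 and the counts to 502 higher and 2561 lower, and with TMM factors they were -0.14, 707 and 2123. Only 2-fold differences are called, and with 1 library no call has a test. The shares of 8.11% higher and 16.8% lower over all genes are the background for the list counts that follow.

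Under the naming rule the 15 highest genes included Npy, Mafa, Arhgap36, Sytl4, Slc2a2, Ppp1r1a, Cntfr, Slc30a8, Iapp, Ero1lb, Nnat, Nkx6-1, C1qa and Enho. The 15 lowest were Nts, Fcgbp, Gip, Scin, Afp, Gcg, Serpina1a, Serpina1c, Slc16a3, Serpinf2, Adgrg4, Sis, Gcnt3, Tff3 and Tac1. Ppp1r1a, a protein phosphatase inhibitor, was at 921 CPM (867 to 977) against 9.69 (8.14 to 11.5), and the imprinted proteolipid Nnat at 11104 (10916 to 11294) against 449 (438 to 460). On the low side the sucrase gene Sis was at 10.8 CPM (5.77 to 18.5) against 425 (415 to 436). Fcgbp and Scin had no UMI in the insulin cells. Against the floor of 3 counts over the 130 cells they were at least 40.2-fold and 30.0-fold lower.

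**Figure D2:**
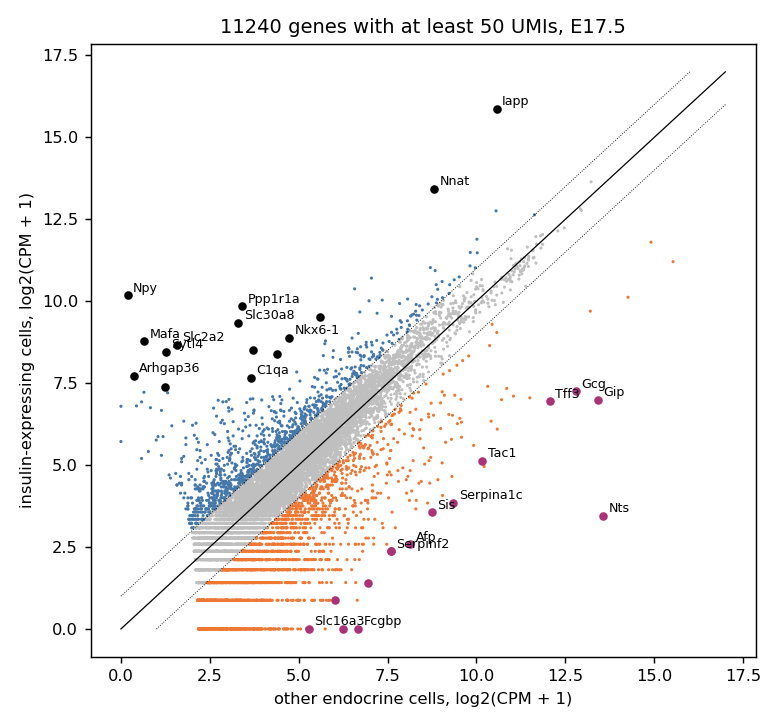
Each point is 1 of 11240 genes, with the summed level in the 1512 other endocrine cells on the horizontal and in the 130 insulin-expressing cells on the vertical axis, as log2(CPM + 1). Dotted lines mark 2-fold, blue points are the 912 genes at least 2-fold higher and orange the 1884 at least 2-fold lower, black points are the 15 highest and purple the 15 lowest genes under the naming rule.

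Among islet hormones, amylin and neuropeptide Y were higher and the hormones of other islet cells were lower or level. Of the 7 genes of the list, 2 were at least 2-fold higher, 3 lower and 2 between. Iapp ranged over the members from 8900 to 164683 CPM with a median of 54178, while the median of the other endocrine cells was 0 and their highest cell 98001, so the 2 sets overlapped in their tails. Summed, Iapp was at 60145 CPM against 1520, a log2 difference of 5.31 (5.28 to 5.33). Npy had 1390 UMIs in the insulin cells and 2 in the other endocrine cells, a ratio of 8186 with a counting interval of 11.14 to 16.05 on the log2 scale. It was unevenly spread, with UMIs in 56 members, a median of 0 and a highest cell at 6945 CPM, and it had no UMI in fibroblast-marker or acinar cells. Glucagon (Gcg) was at 151 CPM (130 to 174) against 7064 (7020 to 7108), and 45.9% of its member UMIs came from 1 cell. Somatostatin (Sst) and ghrelin (Ghrl) were at 829 and 1112 CPM against 9418 and 19673. Here too 1 cell held 41.6% of the member Sst UMIs, and 1 cell held 977 of the 1335 member Ghrl UMIs. After thinning each cell to 2000 UMIs, Sst was seen in 10.9% of members and 11.2% of other endocrine cells (1.86% of fibroblast-marker cells) and Ghrl in 9.30% and 48.8%. Against Gip-led endocrine cells alone, a comparison added after seeing the data, Sst was at a log2 difference of 3.19 and Ghrl at -0.82. That set leaves out all cells led by Sst or Ghrl by definition, so both shifts follow in part from the choice of cells. Peptide YY (Pyy) did not reach 2-fold, at 6996 (6847 to 7147) against 7912 (7866 to 7959), nor did pancreatic polypeptide (Ppy), at 457 (420 to 497) against 322 (313 to 331).

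Gut hormones were lower. Of 10 measured genes of that list 8 were at least 2-fold lower, 2 were between (Gal and Pyy) and none was higher, with a median of -4.28 on the log2 scale against 0.019 over all genes, and of -4.19 with Insl5 at its bound. Neurotensin (Nts) had 12 UMIs in the insulin cells, 10 CPM (5.17 to 17.5) against 12105 (12047 to 12162). Gastric inhibitory polypeptide (Gip) was at 127 CPM (107 to 148) against 10887 (10832 to 10941), and secretin (Sct) at 2362 (2276 to 2450) against 47276 (47163 to 47390). Of the members' Sct UMIs 96.6% came from 10 cells, and the median member was at 104 CPM. Cholecystokinin (Cck) was at 3567 CPM against 30756, and 67.5% of the members' Cck UMIs came from 1 cell. Insl5, a hormone of distal gut endocrine cells, had no UMI in the members and was at least 9.96-fold lower.

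The transcription factors of beta cells fell into a set higher in the insulin cells, led by Mafa, a larger set within 2-fold and 2 lower genes. Of 21 tested genes 7 were at least 2-fold higher (among them Mafa, Nkx6-1, Pdx1, Mlxipl, Mnx1 and Tshz1), 2 were lower (Hnf4a and Pax4) and 12 were between, with a median of 0.44. Mafa, which drives insulin gene transcription in maturing beta cells, had 524 UMIs against 8, at 437 CPM (400 to 476) against 0.566 (0.244 to 1.12), a log2 difference of 8.13. Over the members Mafa ran from 0 to 1515 CPM with a median of 363. After thinning each cell to 2000 UMIs it was seen in 51.9% of insulin cells, 0.136% of other endocrine cells and 0% of fibroblast-marker and acinar cells.

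Nkx6-1, a factor that represses other islet fates, was at 470 CPM (432 to 510) against 25.7 (23.1 to 28.5), and ran from 0 to 1804 with a median of 495. Pdx1, a master factor of pancreas and duodenum, was at 323 (292 to 357) against 50.7 (47.1 to 54.6), a log2 difference of 2.65. The pan-endocrine factors were close to level. Neurod1 was at 334 CPM (302 to 368) against 401 (390 to 411), Isl1 at 432 (395 to 470) against 354 (344 to 363), and Pax6 at 279 (250 to 311) against 163 (157 to 170), none past 2-fold. Pax4, a factor of early beta cell specification, was lower, at 15 CPM (8.89 to 23.7) against 80.4 (75.8 to 85.2).

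Factors of other endocrine fates were mostly lower. Of 13 tested genes 7 were lower, 2 higher (Meis2 and Irx2) and 4 between, with a median of -1.86. Etv1, a factor of gut endocrine cells, was at 10.8 CPM (5.77 to 18.5) against 197 (189 to 204), and Hhex, the delta cell factor, at 18.3 (11.5 to 27.7) against 79.9 (75.3 to 84.7). Lmx1a, a factor of serotonin-making gut cells, had 1 UMI against 697, with a counting interval of -11.19 to -3.40 for the log2 ratio. Meis2 was higher, at 469 CPM (431 to 509) against 89.6 (84.7 to 94.6). Irx2 passed 2-fold on 10 UMIs, of which 80% came from 1 cell, and its log2 difference turned to -0.70 when members were restricted to at least 5% insulin UMIs. Neurog3, the progenitor factor, was at 10 CPM (5.17 to 17.5) against 17.5 (15.4 to 19.8).

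Among genes that sense glucose and release insulin, the glucose transporter Slc2a2, the zinc transporter Slc30a8 and genes of granule docking were higher, and most channel genes were within 2-fold. Of 21 tested 7 were higher, 2 lower and 12 between, with a median of 0.45. Slc2a2 was at 408 CPM (373 to 446) against 1.98 (1.32 to 2.86), a log2 difference of 7.10, and ran over the members from 0 to 1441 with a median of 330. Slc30a8, the zinc transporter of insulin granules, was at 646 (601 to 693) against 8.84 (7.36 to 10.5), and Sytl4, a granule docking protein, at 352 (319 to 387) against 1.41 (0.864 to 2.18). The islet phosphatase G6pc2 was at 111 (92.8 to 131) against 0.354 (0.115 to 0.825). The potassium channel subunit Abcc8 was at 366 (332 to 402) against 163 (157 to 170) and its partner Kcnj11 at 40.8 (30.2 to 54) against 22.2 (19.8 to 24.8). Abcc8 did not reach 2-fold when scaled by all UMIs, with a log2 difference of 0.78, nor did the factor Tshz1 at 0.67 or the noncoding RNA Meg3 at 0.88. The facilitative transporter Slc2a1 was lower, at 12.5 (6.99 to 20.6) against 41.2 (37.9 to 44.7). The incretin receptor Glp1r had 4 UMIs in each set, too few to test, and the calcium-activated channel Trpm5 had 48 UMIs in the members and 0 in the others, at least 188-fold higher against the floor of 3 counts.

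Among granule genes the folding enzyme Ero1lb and the convertase Pcsk2 had the largest log2 differences. Of 19 tested granule genes 7 were higher, 1 lower (Vgf) and 11 between, with a median of 0.57. Pcsk1n and Rbp4 passed narrowly, at log2 differences of 1.01. They did not reach 2-fold with doublets removed (0.94 and 0.91), all UMIs (0.63 and 0.62) or TMM factors (0.85 and 0.84). Scgn did not with all UMIs (0.87). Against Pyy-led endocrine cells alone, a comparison added after seeing the data, Pcsk2 (0.77), Gnas (0.53), Scg3 (0.56), Scgn (0.31), Rbp4 (0.28) and Pcsk1n (-0.29) did not reach it. The convertase Pcsk2 was at 1330 CPM (1265 to 1397) against 94.2 (89.2 to 99.4) and was found in 130 of 130 members, from 129 to 2779 CPM. Pcsk1, the other proinsulin convertase, was at 497 (457 to 538) against 265 (257 to 274), short of 2-fold, and carboxypeptidase E (Cpe) at 1126 (1067 to 1188) against 923 (907 to 939). Ero1lb, an islet oxidase that helps fold proinsulin, was at 361 (328 to 396) against 12.1 (10.4 to 14.1). Chga and Chgb chose the comparison cells, so their shares of UMIs are given as a description. Chga was 0.127% of UMIs in the members and 0.221% in the other endocrine cells, and Chgb 0.136% and 0.932%.

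Genes of protein folding in the endoplasmic reticulum were higher as a group, and the stress effectors among them were level. Of 20 tested 11 were at least 2-fold higher, 0 lower and 9 between, with a median of 1.19 that stayed positive under every scaling tried, from 0.81 to 1.19. The chaperone Hspa5 was at 2869 CPM (2774 to 2967) against 906 (891 to 922), and over the members had a median of 2597 against 859. Sdf2l1 and Creld2, a pair of targets of the unfolded protein response, were at 1031 (975 to 1090) against 125 (119 to 131) and 416 (380 to 454) against 52.2 (48.5 to 56.1). Manf, a secreted folding factor, was at 2084 (2004 to 2168) against 416 (405 to 427), and the disulfide isomerase Pdia6 at 1957 (1879 to 2038) against 456 (445 to 468). By contrast the response's own regulators Xbp1, Atf4 and Ddit3 had log2 differences of 0.075 (-0.12 to 0.27), 0.21 (0.017 to 0.40) and 0.005 (-0.32 to 0.31).

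Genes that change as beta cells mature were mixed. Of 13 tested 8 were higher, 3 lower and 2 between, with a median of 3.92. This list overlaps the lists above in members that include Mafa, Nkx6-1, Slc2a2, G6pc2, Npy, Ero1lb and Ucn3. Ucn3, urocortin 3, a late marker of mature mouse beta cells, was lower, at 22.5 CPM (14.8 to 32.7) against 79.5 (74.9 to 84.3), with a UMI in 2.33% of members and 11.5% of other endocrine cells after thinning. Dlk1, abundant in fetal beta cells, was at 1668 (1596 to 1743) against 131 (125 to 137). Cd24a, a marker of immature endocrine cells, was lower at 90.8 (74.6 to 110) against 442 (431 to 453). Cox6a2, a mitochondrial subunit of islets and muscle, had 44 UMIs against 2, a ratio of 259 with a counting interval of 6.08 to 11.11 on the log2 scale, and was too low to be tested.

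Intestinal identity genes were lower. All 19 tested genes of that list were at least 2-fold lower, with a median of -3.53 and a range from -5.12 to -2.24. The homeobox gene Isx, on 4 member UMIs, did not reach 2-fold as a mean of each cell's CPM, at -0.97. With the 3 tested genes at 0 UMIs set to their bounds the median was -3.51 and the highest value -1.49. Cdx2, the homeodomain factor that sets intestinal identity, was at 15 CPM (8.89 to 23.7) against 184 (177 to 191), and after thinning was seen in 2.33% of members, 29.6% of other endocrine cells, 2.48% of fibroblast-marker and 1.70% of acinar cells. The members were thus near the share of cells that should lack the gene. Cdx1 had 1 UMI in the members against 764, and Gata4 and Gata5 had none, which made them at least 9.85-fold and 2.8-fold lower. Cdh17, an intestinal cadherin, was at 21.7 CPM (14.1 to 31.7) against 348 (338 to 358), and the lectin Lgals4 at 161 (139 to 185) against 1844 (1822 to 1867). Signalling genes of gut endocrine cells followed, with 9 of 10 lower, 1 higher and a median of -2.98 (-2.97 with Sstr5 at its bound). The serotonin enzyme Tph1 was at 13.3 CPM (7.62 to 21.6) against 394 (384 to 404), with 93.8% of its 16 member UMIs from 1 cell. The long-chain fatty acid receptor Ffar4 was the 1 higher, at 75.8 (61 to 93.1) against 32.6 (29.7 to 35.7). Ffar4 did not reach 2-fold when scaled by all UMIs, at a log2 difference of 0.82, nor against Gip-led cells at 0.52 or Pyy-led cells at 0.057.

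Markers of mesenchymal, endothelial and red blood cells were low in the insulin-expressing cells, while some duct and neuronal genes were measurable. Of 13 tested acinar genes outside the rule 12 were lower and 1 between. The acinar threshold applied to the insulin cells and not to the comparison cells, whose highest cell had 11.8% of UMIs from the 5 enzymes, so these counts describe the rule in part. With no acinar threshold 1 cell was added, and among others Cpb1, Pnliprp1, Pnliprp2 and Rbpjl turned higher, at log2 differences of 0.42 to 0.70 for the first 3 and 0.069 for Rbpjl. With likely doublets removed from both sets, Cela3b, Cpb1, Pnliprp1, Try10 and Try5 no longer reached 2-fold, at -0.76, -0.43, -0.61, -0.77 and -0.96. Summed, the acinar list was 283 CPM in the members and 2726 in the others. The duct list summed to 1065 CPM against 1383. Of its tested genes 2 were higher (Spp1 and Clu), 3 lower and 4 between, and Spp1, at 442 CPM against 53, had UMIs in only 12.3% of members with 46.2% of its member UMIs in 1 cell. Clu was at 106 CPM against 34.8, with 34.6% of its member UMIs in 1 cell, and did not reach 2-fold with doublets removed, at 0.48, or against Pyy-led cells, at 0.22. Of 6 tested mesenchymal genes 2 were lower and 4 between. The 10 mesenchymal genes of the list summed to 72.5 CPM against 336, with Pdgfra at 0, the 5 endothelial genes to 4.17 against 6.79 with Cdh5 and Kdr at 0, and the 5 haemoglobin genes to 3.33 against 7.22, of which 1 was tested and did not reach 2-fold. Of 4 tested genes of enteric neurons and glia 3 were higher (Tubb3 and Elavl4 among them) and 1 lower (Ret), while Sox10 had no UMI, and the list summed to 191 CPM against 81. Tubb3, a neuronal tubulin, was at 128 CPM (109 to 150) against 11.5 (9.76 to 13.4), with UMIs in 60% of members. Elavl4 passed on 22 UMIs and did not reach 2-fold with doublets removed (0.92), with all UMIs (0.72) or TMM factors (0.93), as a mean of each cell's CPM (0.92) or with a pseudocount of 10 (0.64). Ret did not reach it with Chga and Chgb at 0.3% (-0.88) or with that pseudocount (-0.89). The macrophage and leukocyte markers Ptprc, Cd74, Tyrobp and Lyz2 had no UMI in the members, while Fcer1g had 24 UMIs (20 CPM against 1.98). C1qa, a chain of complement C1q, was at 202 CPM (177 to 229) against 11.6 (9.89 to 13.5) with UMIs in 71.5% of members, yet C1qb and C1qc, the other chains, had none. After thinning C1qa was also seen in 48.0% of acinar cells, 34.1% of members and 1.24% of fibroblast-marker cells.

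The reporter locus itself was weakly read. Bmi1 was at 15 CPM (8.89 to 23.7) in the insulin cells and 18.9 (16.7 to 21.3) in the other endocrine cells, and the eGFP transcript had 4 and 31 UMIs. A difference between the sets was not detectable at this depth.

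The insulin-expressing cells showed few mitotic transcripts. Of 15 genes of the G2/M phase 12 were at least 2-fold lower and 3 between, with a median of -1.70, while the 17 S phase genes had a median of -0.0064, with 1 lower (Uhrf1) and 16 between. As a mean of each cell's CPM the G2/M median was -0.98. Under that setting Ccnb1, Cenpf, Mki67 and Top2a did not reach 2-fold, at -0.21, -0.76, -0.98 and -0.32, Aurka turned to 1.04, and Uhrf1 was at -0.66. After thinning to 2000 UMIs, 1 of 129 members had at least 3 G2/M UMIs (0.775%, 0.0196 to 4.24%), against 77 of 1476 other endocrine cells (5.22%, 4.14 to 6.48%) and 1019 of 2099 remaining non-endocrine cells (48.5%, 46.4 to 50.7%). Without thinning the shares were 6.15%, 10.5% and 70.4%. The intervals of both endocrine sets overlap. Against the Pyy-led cells alone the G2/M median was 0.054, so the difference was not seen there.

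Imprinted genes moved in both directions. Of 14 tested 6 were higher, 4 lower and 4 between, with a median of 0.36 that was -0.022 when scaled by all UMIs. Nnat and Dlk1 were described above, Gnas, the stimulatory G protein subunit, was at 6922 CPM (6774 to 7072) against 1498 (1478 to 1519), and the noncoding RNA Meg3 at 2162 (2080 to 2247) against 902 (887 to 918). H19 was lower, at 31.7 CPM (22.4 to 43.5) against 372 (362 to 382), as was the growth inhibitor Cdkn1c at 68.3 (54.3 to 84.8) against 296 (287 to 305). Igf2 had no UMI in the members, at least 2.38-fold lower.

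Among 12 tested growth and hormone receptors 1 was higher, 4 lower and 7 between. Over all genes 8.11% were higher and 16.8% lower, which is the background for both lists of this paragraph. Igf1r was at 52.5 CPM (40.3 to 67.2) against 12.8 (11 to 14.8), and Egfr at 2.5 (0.515 to 7.3) against 24.8 (22.3 to 27.6). The glucagon receptor Gcgr had 39 UMIs against 5, 32.5 CPM against 0.354, and was too low to be tested. The dissociation response genes had a median of -0.19, with 0 higher, 2 lower (Hspa1a and Hspa1b) and 8 between, and Fos was at 1623 CPM (1552 to 1697) against 1130 (1113 to 1148).

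Some members held a second hormone. Counting a second hormone at 0.5% or more of UMIs outside the rule genes, and taking the largest of 8 (Cck, Gip, Nts, Sst, Ghrl, Gcg, Pyy and Ppy), 38 members were led by Pyy, 3 by Sst, 2 by Cck and 1 by Ghrl, and 86 had none. Pyy had UMIs in 109 members and reached 0.5% in 42. Its share of members with a UMI, 83.8%, compares with 9.41% of fibroblast-marker cells and 23.2% of remaining non-endocrine cells. Cck, Sst and Ghrl were concentrated, with 98.9%, 96.9% and 98.6% of their member UMIs in the 10 highest cells each. Gip had UMIs in 44.6% of members but never reached 0.5%, with a highest value of 0.144%.

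The Pyy-led members differed in level from the members without a second hormone. The 38 Pyy-led cells (median 9999 UMIs) had Pyy at 20085 CPM against 1135 in the 86 others (median 12365.5). Summed Ppy was at 1325 against 137 CPM, but 87.1% of the Ppy UMIs of all members came from 10 cells. Ppy had UMIs in 47.4% of the Pyy-led cells and 29.1% of the 86 others, so its summed levels describe few cells. The Pyy-led cells had less Mafa (351 against 523 CPM), Slc2a2 (294 against 493), Npy (636 against 1509) and Dlk1 (1049 against 2072). Iapp was at 68445 against 60940, Nkx6-1 at 498 against 492 and Pdx1 at 339 against 325. The 2 Cck-led cells carried intestinal transcripts, with Sct at 56539, Tff3 at 2819 and Lgals4 at 901 CPM, and had a median of 23939 UMIs. Of the 193 barcodes with the highest doublet scores among 4602, 7 were insulin cells. Leaving out the 6 members led by Cck, Sst or Ghrl, a choice made after seeing the data, moved the gut hormone median from -4.28 to -5.71.

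Levels of several genes followed the insulin share within the members. The 12 cells at 2 to 5% insulin, 18 at 5 to 10%, 27 at 10 to 20% and 73 at 20% or more are ranges of a score and not cell types. Mafa was at 87.7, 243, 367 and 558 CPM across them, Slc2a2 at 52.6, 182, 250 and 569, and Npy at 8.77, 290, 392 and 1793. Sdf2l1 was at 430, 648, 913 and 1252 CPM. Pyy was ordered the other way, at 22205, 10776, 8210 and 3294 CPM. Pdx1, at 430, 418, 342 and 279 CPM, was highest in the 2 lower ranges, and Dlk1 was at 649, 931, 1176 and 2160 CPM. Iapp was at 41033, 38693, 48318 and 71879 CPM. Median depth also differed, at 7794, 7672.5, 8570 and 13830 UMIs, and its part was not tested.

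**Figure D3:**
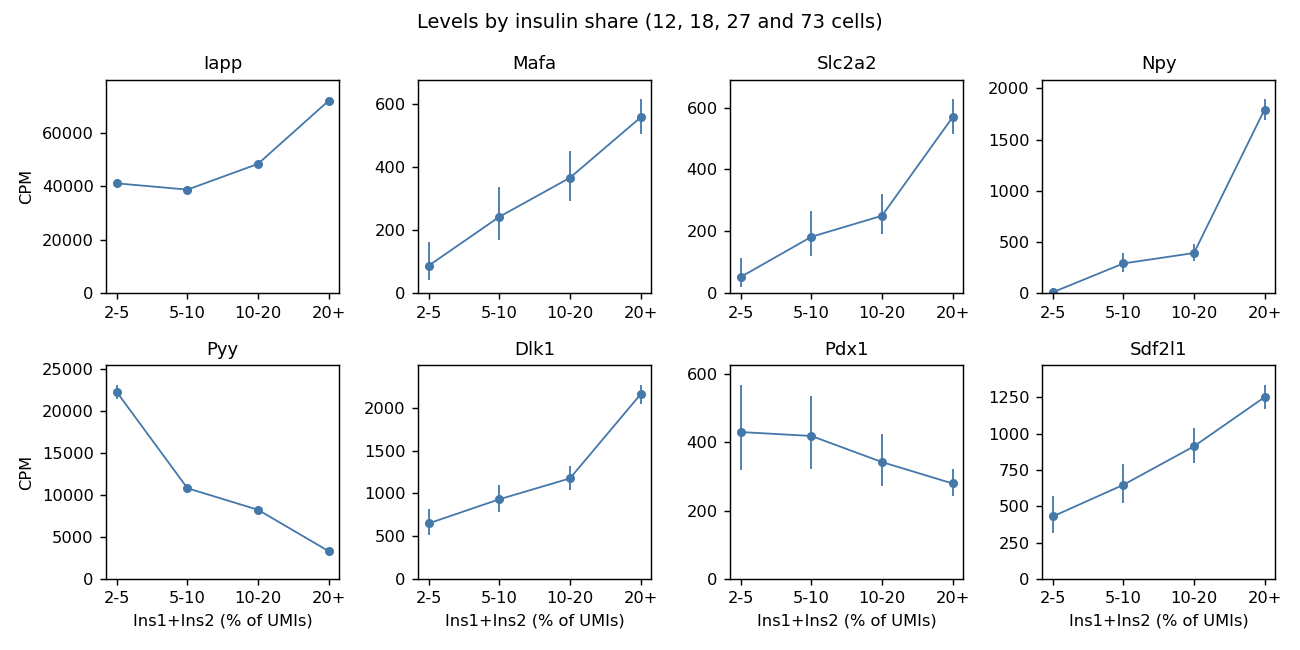
Levels of 8 genes, in CPM outside the rule genes, in insulin-expressing cells grouped by the share of UMIs from Ins1 and Ins2 (12, 18, 27 and 73 cells); points are summed levels and bars are 95% Poisson intervals. Mafa, Slc2a2, Npy, Dlk1 and Sdf2l1 are lowest in the 2 to 5% range and highest at 20% or more, and Pyy is highest in the 2 to 5% range.

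Over single cells the same genes ranked with the insulin share. Spearman's rho over the 130 cells was 0.58 for Slc2a2, 0.53 for Iapp, 0.52 for Dlk1, 0.47 for Sdf2l1 and 0.44 for Mafa, and -0.38 for Pyy and -0.19 for Pdx1. Pcsk2 was at 0.02 and UMIs outside the rule genes at 0.25. The cells share 1 library and differ in depth, so these are descriptions.

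Among the other endocrine cells, those led by Pyy most often held UMIs of Nkx6-1 and Meis2. By the same 8 hormones, the 1512 cells were led by Cck (358), Ghrl (150), Gip (134), Nts (132), Pyy (104), Gcg (73) or Sst (73). The remaining 488 had none of the 8 at 0.5% of UMIs. Sct was not among the 8, and it reached 0.5% of UMIs outside the rule genes in 1174 of the 1512 cells (77.6%). Mafa had UMIs in 0.962% of Pyy-led and 1.37% of Sst-led cells against 81.5% of insulin cells, and Slc2a2 in at most 2.88% of any group against 80.0%. Nkx6-1 was found in 43.3% of Pyy-led cells and at most 14.1% of the other groups, and Meis2 in 75% and at most 38.4%. Pcsk2 was in 67.3% of Pyy-led and 39.7% of Sst-led cells. Cdx2 was in 19.2% of Pyy-led cells and 52.1 to 79.5% of the other groups, against 8.46% of insulin cells. These shares are unthinned, with median depths of 5875.5 to 9413 UMIs against 12192.5 in the insulin cells.

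**Figure D4:**
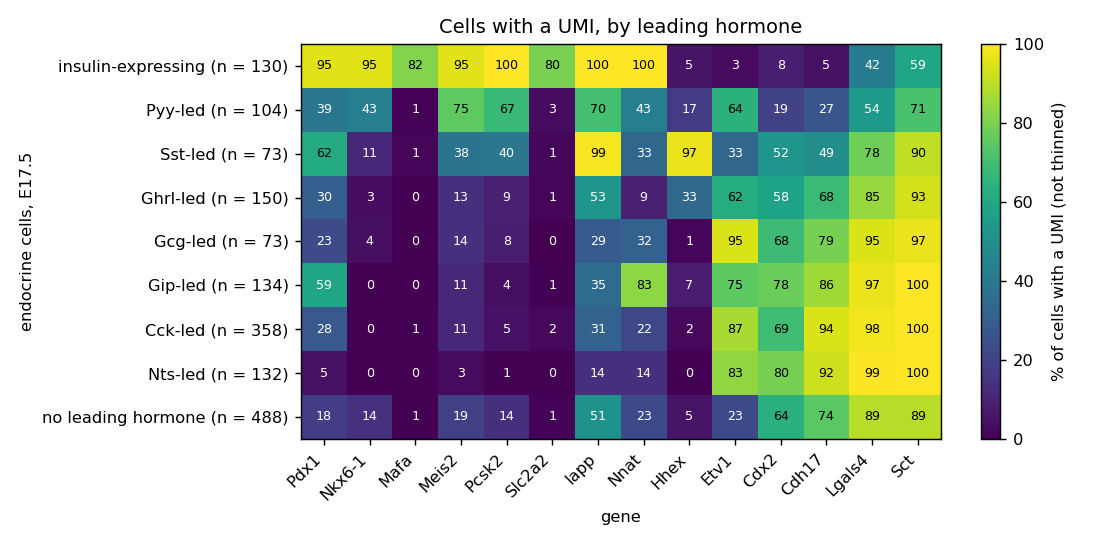
Percentage of cells with at least 1 UMI of each gene (columns), without thinning, in the insulin-expressing cells and in the other endocrine cells grouped by leading hormone (rows, n cells in brackets). Mafa and Slc2a2 are at 80% or more in the insulin cells and at most 3% elsewhere, while Pdx1, Nkx6-1, Meis2, Pcsk2 and Iapp are also found in Pyy-led or Sst-led cells and Cdx2, Cdh17, Lgals4 and Sct are lowest in the insulin cells.

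With the 104 Pyy-led cells as the only comparison, a setting added after seeing the data, several values lay closer together. Meis2 was at 469 CPM in the insulin cells and 700 in the Pyy-led cells, Gnas at 6922 against 4795, Pcsk2 at 1330 against 779 and Rbp4, retinol binding protein, at 6371 against 5251. Others remained far apart. Mafa was at 437 against 2.51, Slc2a2 at 408 against 7.54, Slc30a8 at 646 against 95.4, Nnat at 11104 against 394 and Iapp at 60145 against 10223. The beta cell factor list then had a median of -0.080, and the intestinal identity list -2.47. Of 97 named genes past 2-fold in the comparison with all 1512 cells that could be compared here, 76 kept their call. The receptor Igf1r did not, at 0.78, nor did the granule gene Vgf, at -0.35.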

How the data were processed

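The authors deposited raw UMI count matrices per gene and cell barcode for 4 libraries, 1 per group, made with the 10x Chromium 3′ kit per the labels' protocols. Cell Ranger 3.1.0 and mm10 are given in the submitters' processing notes. A cell needed 500 detected genes and no more than 20% of UMIs from mitochondrial genes. Counts were summed over the 130 insulin-expressing and the 1512 other endocrine cells of the E17.5 library, divided by the UMIs outside the 9 rule genes and compared as log2(CPM + 1), for genes with at least 50 UMIs. A 2-fold ratio was the call. No test was possible with 1 library per group. Intervals are exact Poisson or Clopper-Pearson at 95%. The authors' counting could divide reads between near-identical or overlapping genes.

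Shares of cells were compared after thinning to 2000 UMIs outside the rule genes, with fibroblast-marker cells (collagen genes Col1a1, Col1a2 and Col3a1 at 0.3% of UMIs) and acinar cells (5 enzymes at 2%) as background. Likely doublets were ranked with Scrublet in scanpy 1.11.5 at 0.8% per 1000 cells and kept, with their removal as an alternative. Named genes were the rule genes, the members of 23 gene lists, and the 15 highest and 15 lowest genes with at least 200 UMIs in the higher set and UMIs in 25% of its cells. Some members of the lists are not reported here by name. Predicted, mitochondrial, ribosomal, haemoglobin, immunoglobulin and Y-linked genes, Xist and Tsix could not enter the 15. C1qb, C1qc and the 17 cells with little Ins1 were singled out after values were seen. The members and lists were chosen with earlier results of these data known. Of 31054 features, 30934 (99.6%) matched GENCODE M21 by identifier. TMM factors came from edgeR 4.0.16 in R 4.3.3, other work used Python 3.11.15, and the ratios were tested on simulated data.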

Additional observations from a re-analysis of the deposited data

How the results depend on the processing

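With other thresholds, filters or doublet treatment the insulin cells numbered 118 to 138. Of 152 named genes past 2-fold, from 132 to all 152 kept their call under each planned setting that could test all of them. The 2-fold higher count was 502 when scaled by all UMIs, 504 with a pseudocount of 10 CPM, 495 with a minimum of 200 UMIs, 1381 with 10 and 1638 with 1. The lower count was 811 with the pseudocount of 10 and 1080 with a minimum of 200. The median of all genes was -0.34 when scaled by all UMIs, -0.14 with TMM factors and 0.21 against Gip-led cells.

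The gut hormone median was -4.64 with insulin at 5%, -4.64 when scaled by all UMIs, -4.85 as a mean of cell CPM and -3.30 with Chga+Chgb at 0.3%. Intestinal identity was -4.36 without doublets and -2.80 with the pseudocount of 10. Scaled by all UMIs, beta cell factors were at 0.063, granule genes at 0.18 and ER genes at 0.81. With TMM factors granule genes were at 0.40 and ER genes at 1.03, and as a mean of cell CPM beta cell factors were at 0.10 and granule genes at 0.35.

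Settings added after seeing the data were the following. Without members led by Cck, Sst or Ghrl the gut hormone median was -5.71. Against Gip-led cells 639 genes were lower, gut hormones were at -2.29, glucose sensing at 1.01, granule genes at 0.17, Ffar2 at 0.47 and Sst at 3.19. Against Pyy-led cells 313 genes were higher and 231 lower, gut hormones were at -3.31, beta cell factors at -0.080, granule genes at 0.23, intestinal identity at -2.47 and ER genes at 1.39. There G2/M and Ube2c were at 0.054, Abcc8 at -0.047, Meis2 at -0.58, Ndn at -0.16 and Pcsk1n at -0.29.

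Directions turned for Irx2 at -0.70 with insulin at 5%, for Cpb1 at 0.49, Pnliprp1 at 0.42, Pnliprp2 at 0.70 and Rbpjl at 0.069 with no acinar threshold, for Aurka at 1.04 as a mean of cell CPM and for the immune list at -0.14 with a minimum of 1 UMI. The cause was not tested. Shares of members with a UMI grew with depth: thinned to 1000 and 4000 UMIs and without thinning, Mafa was in 27.7%, 68.5% and 81.5% and Pdx1 in 32.3%, 78.0% and 95.4%. Ucn3 was in 9.45% at 4000 and 13.8% without thinning, and Cdx2 in 8.46% without. No paired analysis was possible because each group is 1 library and no test was run. Limits include 1 library per group of unknown animal number, and genes under 50 UMIs over both sets entered no count of calls.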
